A study of Brassica napus with 355 samples.

Results

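The chromosomes A09, A10 and C9 of oilseed rape (Brassica napus) were followed through 354 leaf RNA-seq libraries. All gene identifiers that place a gene on the B. rapa chromosomes A09 and A10 or on the B. oleracea chromosome C9 were taken, whatever their level, and ordered by the number in the identifier. They were 16201 of 106126 identifiers, with 6456 on A09, 3103 on A10 and 6642 on C9. Of these, 1415 had no count in any library and 7907 had a mean level of at least 1 CPM (the count divided by all counts of the library, times 1000000) over all libraries. Each chromosome was divided along the identifiers into windows of 50, numbered from the start of the chromosome, which gave 129 windows on A09, 62 on A10 and 133 on C9, or 324 of 1944 in the whole genome. The level of a window is the sum of its genes' counts in a library, given as CPM of all counts of that library. The identifiers came without gene names, so roles are given only for genes that the study itself annotated.

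B. napus is an amphidiploid that carries the A genome of B. rapa and the C genome of B. oleracea side by side, so that most genes are present as an A copy and a C copy, called homoeologues. The upper part of A09 is collinear with the upper part of C9, A10 is collinear with the lower part of C9, and much of the lower part of A09 is collinear with C8. Homoeologous chromosomes can pair and exchange segments in B. napus, after which a segment of one genome may be present in additional copies while its counterpart is lost, and such events are known to differ between accessions.

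The study sampled the leaf apex of the youngest leaf from 16 accessions that were kept well watered (WW, 100% of full capacity) or water limited (WL, 20%), at 4 times of day given as hours after dawn, ZT1, ZT7, ZT13 and ZT19. The accessions are named here by the study's short names, which stand for the genotypes Aburamasari (Ab), Alaska_BnASSYST_004 (Al), Aviso (Av), Bristol_BnASSYST-031 (Br), Campari_BnASSYST-075 (Ca), DH12075 (DH12), DH2075 (DH20), Darmor (Da), Gruener Schnittrohl_BnASSYST-219 (Gr), Musette_BnASSYST-056 (Mu), NK_Nemax_BnASSYST-084 (Ne), Quantum NE011 (Qu), Sensaton_NZ_BnASSYST-414 (Se), Stellar DH JZ111 (St), Yudal_BnASSYST-241 (Yu) and Zephir_BnASSYST-068 (Ze). No group carried a transgene. The labels and the study's methods give different day lengths and temperatures for the plants, and the youngest leaf could not be checked against marker genes because the identifiers carry no names.

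The 354 libraries formed 128 groups of accession, watering and time point, of which 101 held 3 libraries, 24 held 2 and 3 held 1, with 19 to 24 libraries per accession, 182 of WW plants and 172 of WL plants. Total counts ran from 3216762 to 35177558 with a median of 18332048. A09 took 5.05 to 9.76% of a library's counts, A10 1.97 to 3.92% and C9 4.22 to 9.28%, and together they took 14.3 to 20.1% with a median of 16.5%. The study describes its replicates as replicates of a treatment at a time point and samples a leaf from each plant, but the labels do not name plants. The p-values of tests on libraries therefore measure the spread between libraries, which may be technical. Sign-flip tests over accessions use 1 value per accession and measure the spread between the 16 accessions. In bulk tissue, fewer cells of a type and less RNA per cell cannot be told apart.

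Some libraries stood apart from others with the same label. In every library, each window was taken as its departure from the median of all libraries of the same watering and time point. These departures were correlated with the median departures of every accession, the library itself left out. The correlation of a library with its own accession had a median of 0.77 over 354 libraries. The library labelled Al WL ZT19 replicate 3 had a correlation of 0.00047 with the other Al libraries and 0.81 with DH12, and the library labelled DH12 WW ZT19 replicate 3 had -0.02 with DH12 and 0.64 with Al. Both are kept under their labels, and counts and calls that move without them are given both ways. A further 4 libraries of Da (WW ZT1 replicate 1, WW ZT7 replicate 1, WW ZT19 replicate 2 and WL ZT13 replicate 2) were less like Da (r of 0.13 to 0.21) than like Ze or Ca (r of 0.21 to 0.30). They too were kept, and their part in the values of Da was not tested.

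A further 15 libraries departed from their own accession over runs of at least 20 windows on A09, A10 or C9, with a running median over 9 windows of at least 0.4 on the log2 scale. Such runs were not particular to these chromosomes. They were found in 5 libraries on A09, 4 on A10 and 7 on C9. On the other chromosomes they were found in 0 (A03, A07 and C7) to 32 libraries (C1). The whole of A10 was low in 3 of the 15 libraries. In Ab WW ZT19 replicate 1 and Ab WL ZT19 replicate 2 the 62 windows of A10 summed to 20148 and 19663 CPM, and the median of the other 21 Ab libraries was 36690 CPM for both. In St WW ZT13 replicate 3 A10 stood at 23124 CPM against 32600 to 37595 CPM in the other 18 St libraries. Br WW ZT13 replicate 2 was low over windows 25 to 59 of A10, with 9626 CPM against 14932 to 18959 CPM in the other Br libraries.

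Long stretches of A09 and C9 departed in the same way in single libraries of Se, Ca and Da. C9 windows 23 to 133 were at 57.6% of the median of the other Se libraries in Se WW ZT1 replicate 1, with 30824 against 48803 to 58916 CPM, while A09 windows 42 to 97 were at 151% of it. C9 windows 27 to 133 were at 57.7% in Ca WW ZT13 replicate 3. On A09, windows 1 to 55 were at 44.9% in Ca WW ZT13 replicate 1 and windows 1 to 54 were at 55.7% in Da WW ZT19 replicate 1. C9 was high in Da WW ZT7 replicate 2, where windows 1 to 33 stood at 143% and windows 65 to 108 at 143% of the median of the other Da libraries. Ca held 7 of the 15 libraries. The departures of the long runs began or ended inside a chromosome in some libraries and covered a whole chromosome in others.

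**Figure D1:**
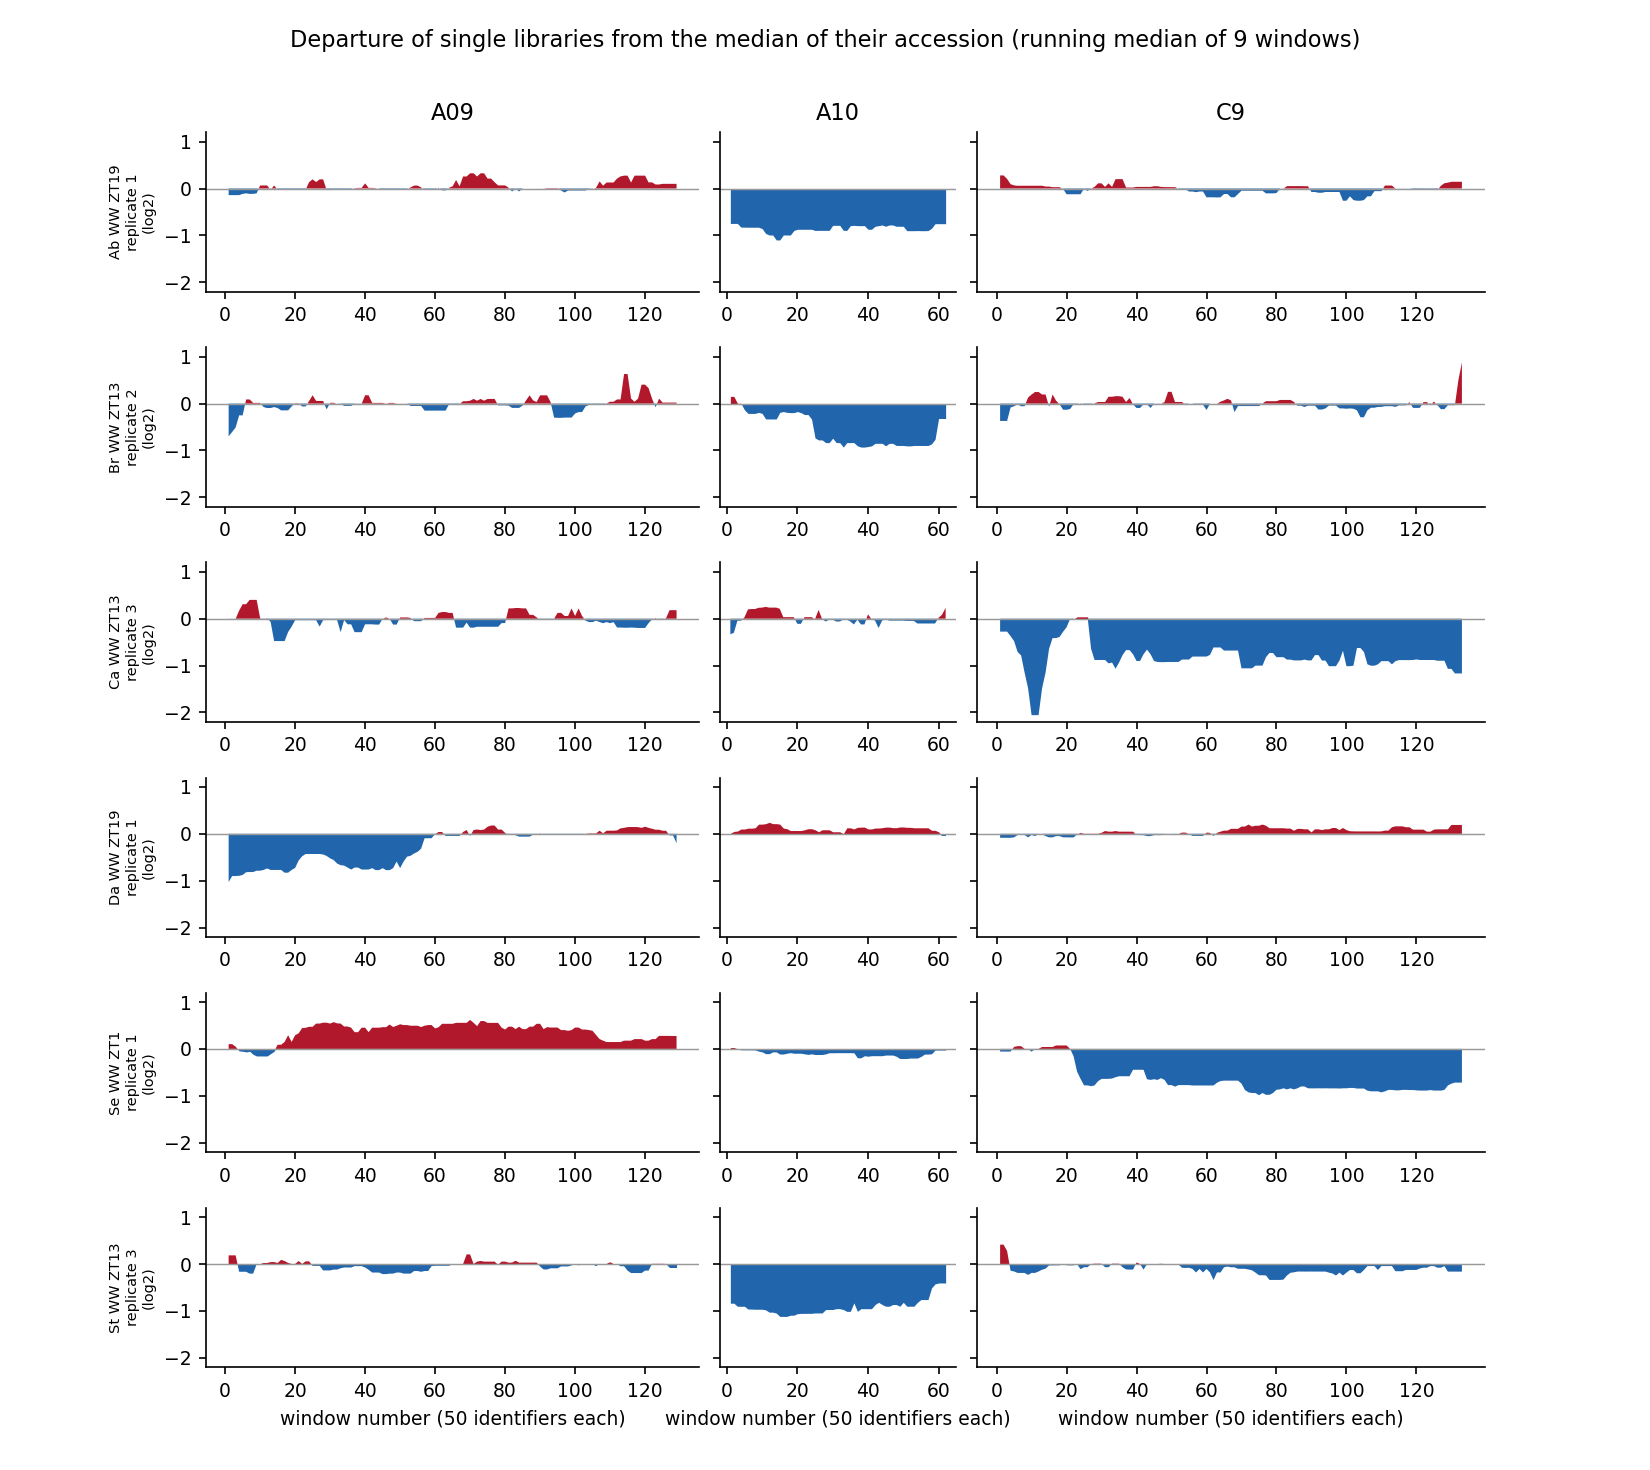
Departure of 6 single libraries from the median of their own accession along A09, A10 and C9 (log2 scale, running median of 9 windows), 1 library per row, the one with the longest run in each of 6 accessions. Blue marks windows below and red windows above the accession's median: A10 is low throughout in Ab WW ZT19 replicate 1 and St WW ZT13 replicate 3, and C9 is low from window 23 on in Se WW ZT1 replicate 1.

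The first comparison asked where along A09, A10 and C9 an accession departed from the mean of the other 15. Departures were concentrated near the ends of A09 and C9 and at the lower end of A10. Of 5184 combinations of a window and an accession, 294 were called (adjusted p of 0.01 or less and at least 1.5-fold, edgeR's quasi-likelihood test with Benjamini-Hochberg adjustment), 175 higher and 119 lower, or 5.67% against a background of 5.81% over the whole genome. Their share is therefore near the background. Without the 2 libraries that went against their labels 298 were called, and without the 15 libraries with long runs 301. Since every contrast uses the other accessions as its reference, the 16 contrasts share libraries and are not independent.

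By position, 102 of 400 combinations were called in windows 1 to 25 of C9 (25.5%), 28 of 400 in windows 109 to 133 (7%) and 21 of 1328 between them (1.58%). On A09 the numbers were 61 of 400 in windows 1 to 25 (15.3%), 50 of 400 in windows 105 to 129 (12.5%) and 7 of 1264 between (0.554%). On A10 they were 0 of 192 in windows 1 to 12 (0 also with DESeq2, and 76 at an unadjusted p below 0.05), 8 of 608 in windows 13 to 50 (1.32%) and 17 of 192 in windows 51 to 62 (8.85%). The middle of all 3 chromosomes thus carried few calls. Se had the most, 57, followed by Ab with 27, Ca with 26, Gr and Yu with 23 each and Qu with 21, and Al had 5. The share of all windows of the genome called in each accession is not given here, so this order may not be particular to these chromosomes.

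**Figure D2:**
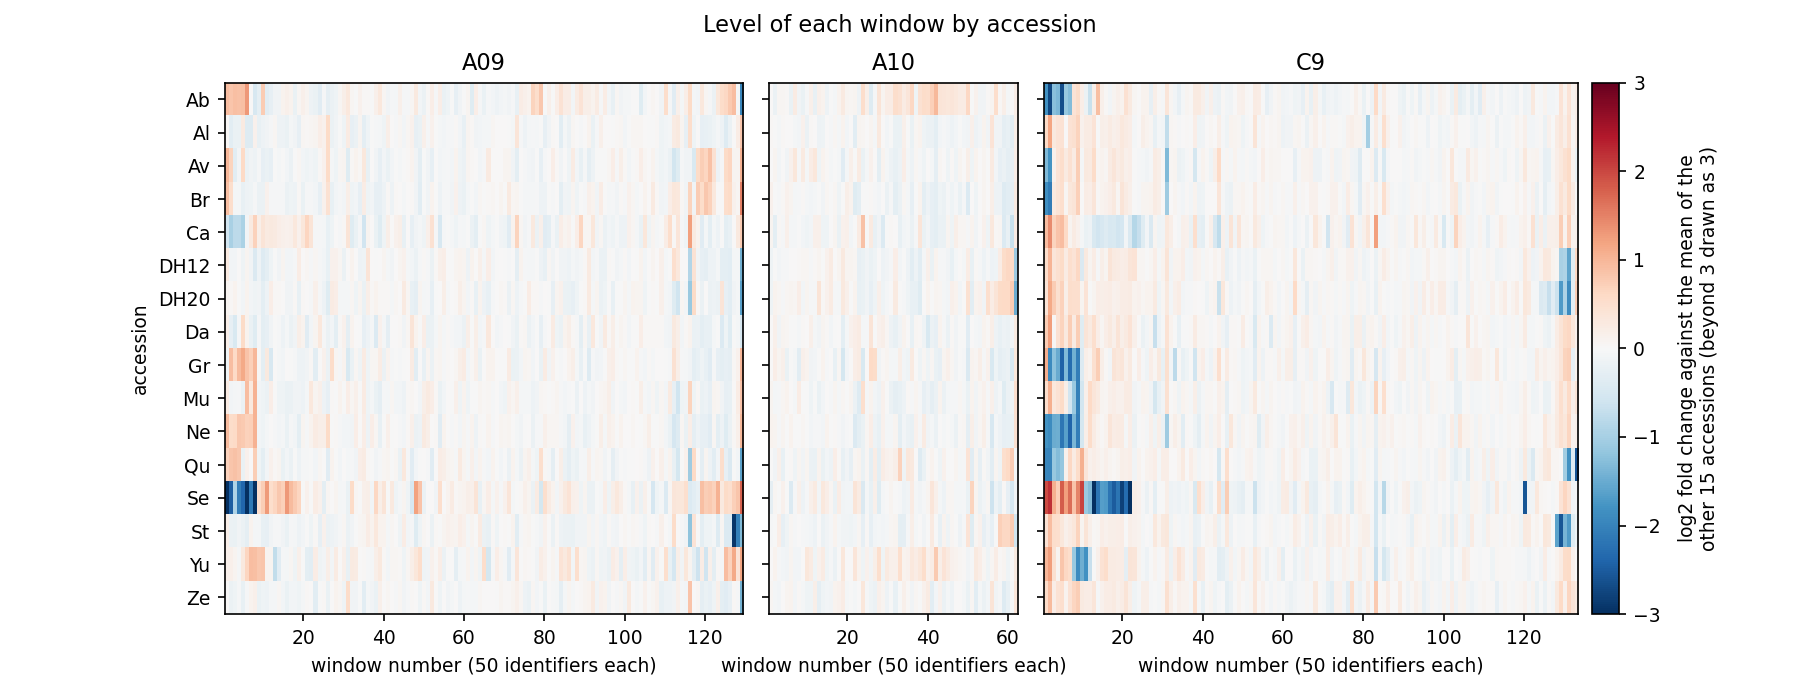
Level of each of 324 windows in each accession (rows) against the mean of the other 15 accessions (log2 fold change, colour; values beyond 3 are drawn as 3), with window number on the horizontal axis. Se shows a low A09 start beside a high C9 start, then the opposite, and Ab, Gr, Ne and Qu a low C9 start.

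Runs of at least 3 neighbouring windows called in the same direction in an accession are called blocks here. There were 27 blocks, which held 147 of the 294 called combinations (50%), in 11 accessions. They were 14 on A09, 2 on A10 and 11 on C9, with 15 higher and 12 lower, and 16 of them began within the first 22 windows of A09 or C9. Lower blocks were on C9 in 9 cases and on A09 in 3. In 1 of the 27, C9 windows 1 to 10 of Se, no library of another accession reached the range of the block's accession.

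Se had the largest departures, and they came in pairs of opposite sign. Over A09 windows 1 to 8 the lowest, median and highest of 22 Se libraries were 1055, 1211 and 1434 CPM, and those of the 332 other libraries 1042, 6322 and 13568 CPM. The Se libraries were all low, and the 2 libraries of another accession in their range were both Ca. The mean log2 fold change of the block was -2.83 (largest adjusted p = 3.2e-17, edgeR), and 193 of 240 measured genes were at 25% or less of the mean of the others, of which 126 were at 5% or less. C9 windows 1 to 10 of Se stood at 12392, 14629 and 20096 CPM against 1560, 6442 and 12196 CPM in the other libraries, without overlap. That block was higher by 1.51 on the log2 scale (largest adjusted p = 9.9e-19, edgeR), and 210 of 268 measured genes were at least 1.5-fold higher.

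The direction was opposite in the next stretch of Se. C9 windows 11 to 22 had 1188, 1321 and 1602 CPM in Se and 1126, 6054 and 9160 CPM in the others, a mean log2 fold change of -2.21 (largest adjusted p = 2.7e-49, edgeR). Of 315 measured genes, 214 were at 25% or less and 89 at 5% or less of the mean of the others, and again 2 Ca libraries were the ones from elsewhere inside the range of Se. A09 windows 13 to 19 of Se were higher by 0.83 (largest adjusted p = 1.6e-10, edgeR) with 5436, 7493 and 10487 CPM against 2155, 4253 and 9923 CPM, so that libraries overlapped there, 9 of the 22 inside the range being Ca.

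The 2 genes with the most counts in each of the 12 longest blocks followed the block to different degrees, and 1 went against it. BraA09g03940R (A09 window 6), in a higher block of Ne, had 322 CPM in Ne (SD 499, n = 21) and 367 CPM over the others. In Se, BraA09g02830R (A09 window 4) had a mean of 36.1 CPM (SD 18.6, n = 22) against 420 CPM for the mean of the others. BraA09g01640R (window 2) had 124 CPM (SD 36.3) against 515 CPM. On C9, Bo9g021880 (window 22) had 19.2 CPM (SD 9.15) against 335 CPM and Bo9g018320 (window 19), which the study annotated with carbohydrate metabolism, 61.2 CPM (SD 24.2) against 217 CPM. These 4 genes were thus at 5.73 to 28.2% of the other accessions. In the higher blocks of Se, Bo9g009620 (C9 window 10) had 1492 CPM (SD 1149) against 302 CPM, Bo9g006480 (C9 window 6) 1139 CPM (SD 317) against 527 CPM, BraA09g08790R (A09 window 16) 1009 CPM (SD 479) against 341 CPM and BraA09g10440R (A09 window 19) 725 CPM (SD 192) against 562 CPM.

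Ab, Gr, Ne and Qu shared a low C9 start with a raised A09 start. C9 windows 1 to 9 of Ne had 1336, 1517 and 1741 CPM against 1740, 6203 and 18651 CPM in the other 333 libraries, -1.81 on the log2 scale (largest adjusted p = 3.4e-26, edgeR), and 164 of 254 measured genes were at 25% or less. C9 windows 2 to 9 of Gr had 1263, 1473 and 1769 CPM, -1.78 against the others (largest adjusted p = 4.6e-26, edgeR). In Ab, C9 windows 1 to 7 had 1113, 1597 and 1848 CPM and were lower by a mean log2 fold change of -1.75 (largest adjusted p = 1.4e-17, edgeR). In Qu the block was shorter, C9 windows 1 to 5, with 837, 1116 and 1288 CPM, -1.51 on the log2 scale (largest adjusted p = 1.6e-36, edgeR). The libraries of other accessions that reached into these ranges came from the same 4 accessions in every case, for example all 21 Ne libraries in the range of Ab and all 22 Ab libraries in the range of Qu.

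On A09 the same 4 accessions were higher, by less than C9 was lower. The mean log2 fold changes were 0.96 over windows 1 to 6 in Ab (6115, 8621 and 13192 CPM), 0.88 over windows 2 to 8 in Gr (7612, 8933 and 12675 CPM), 0.78 over windows 3 to 8 in Ne (4765, 5922 and 8718 CPM) and 0.81 over windows 1 to 4 in Qu (5558, 6214 and 8376 CPM). Their largest adjusted p-values ran from 7.6e-22 to 4.7e-07 (edgeR). Many libraries of other accessions lay in these ranges, 48 of 332 for Gr and 111 of 332 for Ab, and all 22 Gr, 21 Ne and 23 Qu libraries were among the latter.

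Single C9 genes in these windows were close to 0 in the accessions with a low start. Bo9g006070 (C9 window 5) had means of 0.714 CPM in Ab (SD 0.975, n = 22), 0.732 in Ne (SD 0.588, n = 21), 0.864 in Qu (SD 0.831, n = 23) and 5.23 in Gr (SD 4.17, n = 22). It had 223 to 480 CPM in the other accessions apart from Se, where it reached 1017 CPM. The highest library had 3.25 CPM in Ab, 2.1 in Ne and 2.64 in Qu, all below the lowest library outside these 4 accessions, 14.7 CPM in Ca, and the highest Gr library, at 14.9 CPM, just overlapped it. Bo9g003730 (C9 window 2) was low in 6 accessions, with 1.96 CPM in Ab, 2.51 in Qu, 2.93 in Br, 3.45 in Gr, 3.73 in Ne and 5.24 in Av, and had 267 to 443 CPM elsewhere apart from 799 CPM in Se. Bo9g008350 (C9 window 7) had 30.3 CPM in Ne, 46.6 in Gr and 72.9 in Ab, with medians over libraries of 3.86, 0.435 and 4.06 CPM, against means of 308 to 311 CPM over the other 15 accessions of each. Bo9g006480 (C9 window 6) was less reduced, at 41.2% of the others in Ne, 55.5% in Gr and 63.1% in Ab.

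Yu showed a shorter pair further along. C9 windows 8 to 12 of Yu had 450, 799 and 1347 CPM against 503, 1942 and 6141 CPM, -1.39 on the log2 scale (largest adjusted p = 5.8e-13, edgeR), with 76 of 124 measured genes at 25% or less. A09 windows 6 to 10 were higher by 0.82 (largest adjusted p = 1.5e-06, edgeR), at 2376, 3302 and 4391 CPM against 801, 1998 and 6001 CPM, and 102 of the 331 other libraries overlapped.

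Ca departed in the direction of Se, with a wide spread. C9 windows 1 to 6 of Ca had 2685, 7300 and 10367 CPM against 861, 4945 and 13660 CPM (0.90 on the log2 scale, largest adjusted p = 1.4e-09, edgeR), and A09 windows 2 to 5 had 476, 2194 and 4880 CPM against 923, 4062 and 8880 CPM (-0.87, largest adjusted p = 5.7e-12, edgeR). The Ca libraries covered most of the range of the others, with 244 and 225 of 332 other libraries overlapping. The reference for these C9 windows includes Ab, Gr, Ne and Qu, which were low there. Under WW the median of Ca on C9 windows 1 to 6 was 7118 CPM. The medians of the other accessions had a median of 5167 CPM and a highest value of 9756 CPM.

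At the other end of C9, St, DH20 and DH12 were low and A10 was raised. C9 windows 128 to 131 had 537, 743 and 1569 CPM in the 19 St libraries against 764, 2908 and 4539 CPM in the others, -1.82 on the log2 scale (largest adjusted p = 2.0e-21, edgeR), and 64 of 112 measured genes were at 25% or less. In DH20 the same windows had 764, 1067 and 1532 CPM, -1.28 (largest adjusted p = 1.7e-16, edgeR). C9 windows 129 to 131 of DH12 had 701, 898 and 2716 CPM against 410, 2485 and 4038 CPM, -1.16 (largest adjusted p = 1.1e-16, edgeR). The 2716 CPM belonged to the library labelled DH12 WW ZT19 replicate 3, and the next DH12 library had 1252 CPM. The blocks of all 3 accessions stayed called without the 2 libraries that went against their labels.

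A10 windows 58 to 61 of St were higher by 0.68 (largest adjusted p = 2.0e-12, edgeR), with 4644, 5536 and 9248 CPM against 1831, 3216 and 8708 CPM. A10 windows 59 to 61 of DH20 were higher by 0.65 (largest adjusted p = 2.1e-14, edgeR), with 3231, 3858 and 7422 CPM against 1213, 2432 and 7303 CPM. The libraries that overlapped the range of St were mostly from DH20 (17), DH12 (15) and Qu (14). Qu had no block there.

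The end of A09, which is not collinear with C9, departed in 5 accessions. A09 windows 127 to 129 of St had 200, 257 and 649 CPM against 459, 1193 and 2453 CPM, -2.09 on the log2 scale (largest adjusted p = 1.6e-48, edgeR), and 58 of 85 measured genes were at 25% or less. Its highest library, WL ZT7 replicate 2, was the only St library above 317 CPM. The same windows of Se were higher by 1.10 (largest adjusted p = 1.8e-61, edgeR), with 1712, 2063 and 2453 CPM against 200, 1133 and 2170 CPM. Windows 125 to 127 were higher by 0.92 in Yu and 0.78 in Ab, windows 119 to 123 by 0.83 in Se and windows 119 to 121 by 0.75 in Av (largest adjusted p-values from 4.7e-38 to 8.7e-18, edgeR). C8 was not analysed here.

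For every A09 and A10 window, the C9 window whose mean log2 CPM over the 16 accessions had the most negative Pearson r was taken as its partner, as a description. The points share libraries and normalisation. A09 windows 2 to 5 paired with C9 windows 2, 4, 3 and 6 (r = -0.78, -0.88, -0.81 and -0.75), and A09 windows 14, 15 and 17 with C9 windows 15, 13 and 13 (r = -0.94, -0.93 and -0.95). A10 windows 58 to 61 paired with C9 windows 129, 131, 131 and 131 (r = -0.90, -0.93, -0.98 and -0.92). These neighbouring windows had neighbouring partners, but others at the same ends did not. A09 windows 1 and 16 paired with C9 windows 39 and 120 (r = -0.67 and -0.97). A10 windows 57 and 62 paired with C9 windows 65 and 99 (r = -0.69 and -0.76). Each r is the most negative of 133. Windows further along A09 reached similar values, such as -0.90 for A09 window 45 with C9 window 131 and -0.93 for A09 window 48 with C9 window 120. Blocks of opposite direction were joined through these partners, so that their sums lie nearer to the other accessions than their parts by the choice itself. The sum was 93.7 to 97.8% of the mean of the other accessions in Gr, Ab, Yu, Qu and DH20, 104% in Ca and 108% in St. It departed more in Ne (75.9%) and in Se, with 127% for A09 windows 1 to 8 with C9 windows 1 to 10. With C9 windows 11 to 22 of Se it was 86.5% for A09 windows 13 to 19 and 77.7% for A09 windows 119 to 123. Of those A09 windows, 6 of 7 and 1 of 5 had their partner in that C9 block. A09 windows 119 to 123 lie at the end of A09, which is not collinear with C9.

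The A to C9 balance of 3 stretches, log2 of the summed counts of the A windows over those of the C9 windows, shows the accessions side by side. The limits of the stretches were set after the window values were seen, so the values are given without a test. At the start (A09 and C9 windows 1 to 10) the mean was -2.66 (SD 0.23, n = 22) in Se and -0.85 (SD 0.92, n = 22) in Ca, and 0.95 (SD 0.18, n = 23) in Qu, 1.89 (SD 0.21, n = 22) in Gr, 1.94 (SD 0.38, n = 22) in Ab and 2.36 (SD 0.20, n = 21) in Ne. The other 10 accessions lay from -0.28 to 0.44, with Al lowest and Av highest. Gr and Ab differed by less than their SD. In the next stretch (A09 windows 11 to 19, C9 windows 11 to 22) Se stood at 2.78 (SD 0.19), Ca at 0.72 (SD 1.07) and the other 14 at -0.31 to -0.09. At the end of C9 (A10 windows 55 to 61, C9 windows 124 to 131) DH20 stood at 1.52 (SD 0.47), St at 1.32 (SD 0.28), DH12 at 0.84 (SD 0.22) and Qu at 0.75 (SD 0.13), and the others at -0.38 to 0.15. DH20 and St, and DH12 and Qu, differed by less than their SD. The highest Al library, at 0.88, and the lowest DH12 library, at 0.09, were the 2 that went against their labels.

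**Figure D3:**
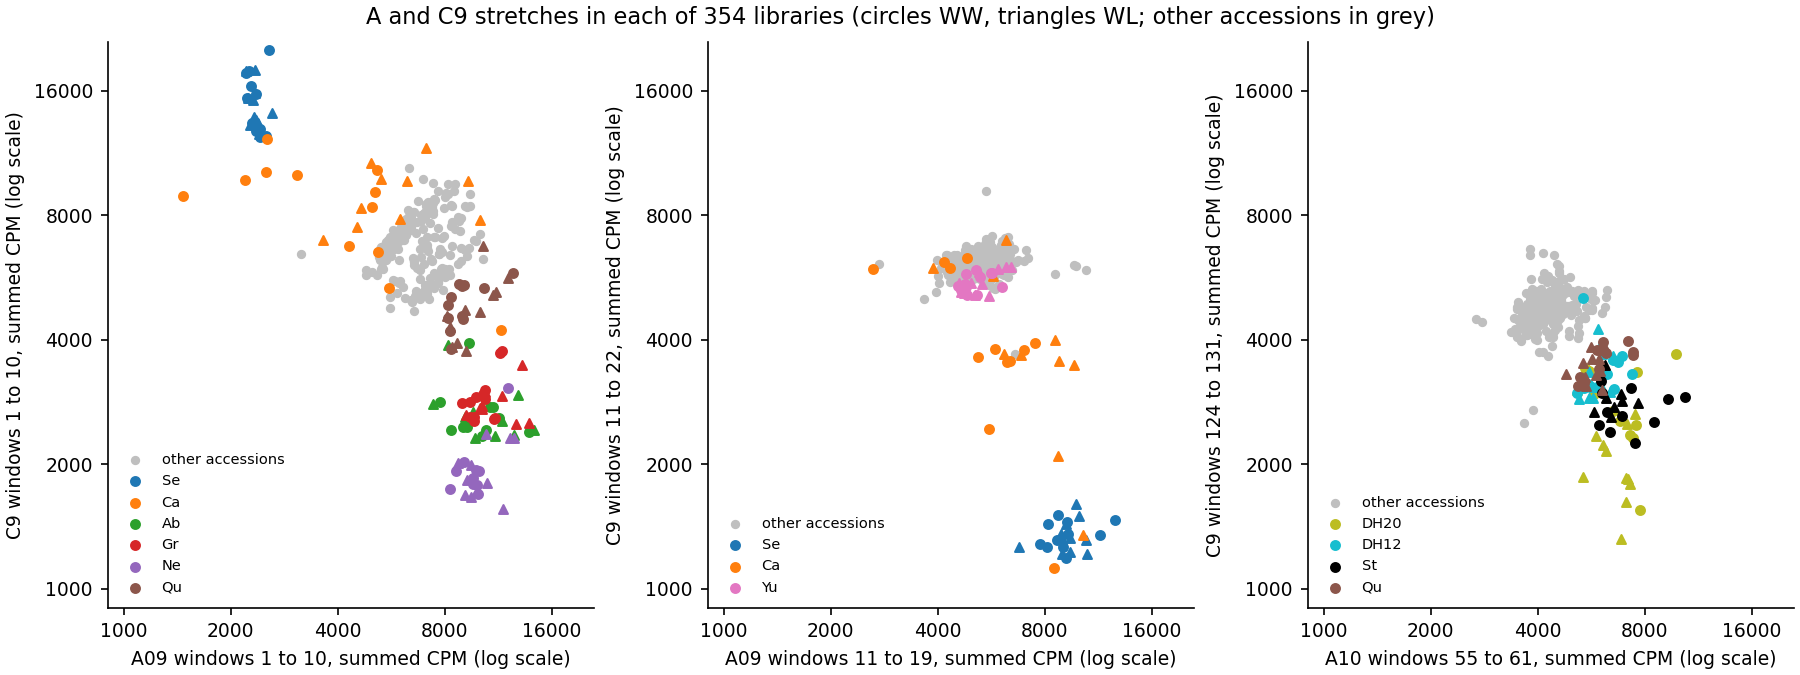
Summed CPM of the A windows (horizontal, log scale) against the C9 windows (vertical, log scale) in each of 354 libraries for the start, the next stretch and the end of C9; colours mark named accessions, circles WW, triangles WL, and grey the remaining accessions. Se lies at high C9 and low A09 in the start stretch and at the opposite corner in the next, Ab, Gr and Ne lie at low C9 in the start stretch, and the points of Ca are scattered widely, from the neighbourhood of Se across the grey points and beyond them.

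Ca and DH20 differed among their own libraries in the same stretches. Over A09 windows 1 to 5, the 12 WW libraries of Ca ran from 665 to 5522 CPM with a median of 2076 CPM, and 5 of them (ZT1 replicate 2, ZT7 replicate 3, ZT13 replicates 1 and 2, ZT19 replicate 3) had 665 to 955 CPM. The 10 WL libraries ran from 1996 to 5272 CPM with a median of 2756 CPM. The medians of the other accessions under WW lay between 1067 and 7337 CPM. Over C9 windows 13 to 24, Ca ran from 1230 to 7141 CPM under WW and from 1826 to 7942 CPM under WL, and the libraries lowest here, WW ZT1 replicate 3 and WL ZT7 replicate 3, were those highest on A09 windows 1 to 5. In DH20, A10 windows 55 to 58 ran from 1847 to 3887 CPM under WW and from 1582 to 3783 CPM under WL, while C9 windows 124 to 127 ran from 717 to 2272 CPM with a median of 1467 CPM under WW and from 553 to 1609 CPM with a median of 1071 CPM under WL. Replicates of 1 group were spread over much of these ranges. In DH20 WW ZT19, the 3 libraries had 1887, 1297 and 717 CPM on C9 windows 124 to 127 and 1847, 2730 and 3887 CPM on A10 windows 55 to 58.

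**Figure D4:**
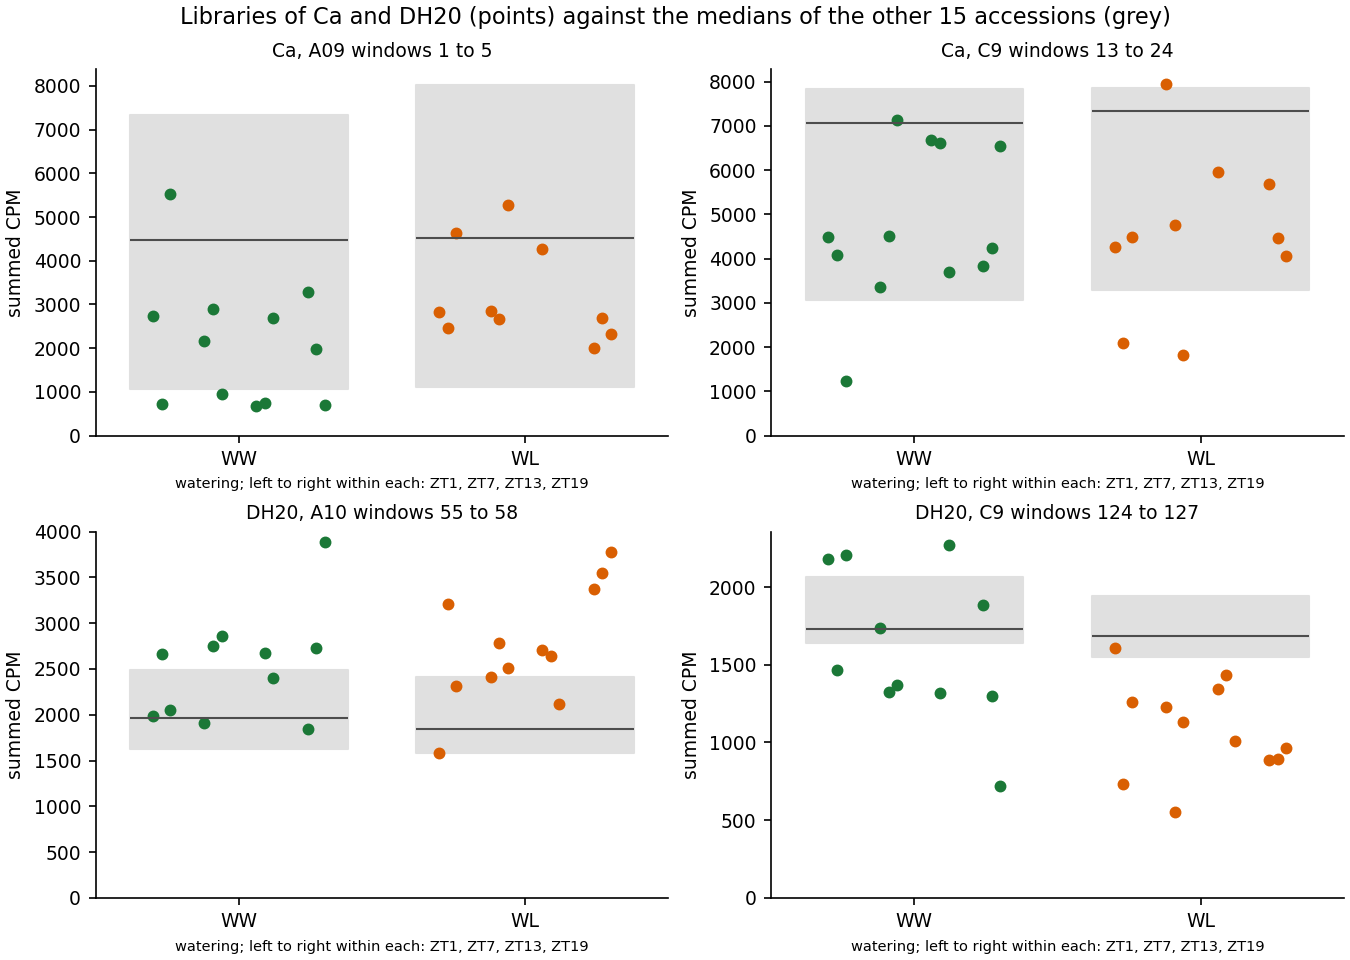
Summed CPM (vertical, linear from 0) of 4 regions in the libraries of Ca and DH20 (points), by watering and, from left to right, time point; the grey band spans the medians of the other 15 accessions and the line is the median of those medians. Of the 12 Ca WW libraries, 5 lie at 665 to 955 CPM on A09 windows 1 to 5, where the WL libraries begin at 1996 CPM.

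The next comparison asked whether water limitation shifted the balance of the chromosomes as a whole. The log2 of the counts on A09 plus A10 over the counts on C9 was lowest in Da, 0.49 (SD 0.13, n = 22), and highest in Ab, 0.81 (SD 0.12, n = 22), with widest spread in Ca (0.22 to 1.25) and Se (0.45 to 1.27). Neighbours in the order of accessions differed by less than the larger of their SDs, apart from Ab and Qu (0.69, SD 0.06, n = 23). Under WL it differed by between -0.07 (Se) and 0.09 (Da). Both accessions were more spread under WW (SD 0.23 in Se and 0.16 in Da) than under WL (SD 0.05 and 0.06). The lowest Da library stood at 0.02, and the median of Da, 0.53, was above those of Al (0.51) and Ze (0.50). Of 16 accessions, 0 passed an exact permutation test of the watering labels within time points (two-sided, Benjamini-Hochberg over 16). In 4 of the 16 the unadjusted p was below 0.05, and the nearest to the threshold were Br and Ne, both higher by 0.05 (exact adjusted p = 0.070). Over accessions the mean difference was 0.02 (SD 0.04 over 16 accessions, above 0 in 12 of 16, p = 0.040 by an exact sign-flip test, two-sided). It was 0.06 at ZT7 (exact adjusted p = 0.033) and 0.02 at ZT19 (exact adjusted p = 0.049), and 0.01 at ZT1 and 0.00 at ZT13 (exact adjusted p = 0.78 for both). These calls changed with the libraries used. At ZT19 the exact adjusted p was 0.074 without the 2 libraries that went against their labels, 0.10 without the 15 with long runs, and 0.78 and 0.38 without replicates 1 and 3. At ZT7 it was 0.056 and 0.32 without replicates 1 and 3. At ZT1 the difference was 0.05 without the 15 libraries (exact adjusted p = 0.0020).

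The shift depended on how genes were weighted. Without the 10 genes of these chromosomes with the most counts, 8 of the 16 accessions passed, among them Br at 0.08 (exact adjusted p = 0.0096) and Ne at 0.07 (exact adjusted p = 0.0076), and the mean over accessions was 0.04 (p = 0.0011, exact sign-flip). As a mean over genes of log2(CPM + 1) it was -0.01 (p = 0.51, exact sign-flip). With all counts it was 0.02 and 0.03 without replicates 2 and 3 (p = 0.22 and 0.096, exact sign-flip). Against A01 over C1 the difference was 0.02 (exact adjusted p = 0.33) and against A02 over C2 -0.01 (exact adjusted p = 0.66), which did not pass, and with all counts the shift exceeded that of A03 over C3 by 0.05 (exact adjusted p = 0.022, above 0 in 14 of 16), which did not pass without replicate 3 (exact adjusted p = 0.13). With those 10 genes left out of A09, A10 and C9 but no gene left out of A01 and C1, the difference was 0.04 (exact adjusted p = 0.037). That comparison sets a trimmed balance against an untrimmed one, so it does not show a shift particular to these chromosomes.

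**Figure D5:**
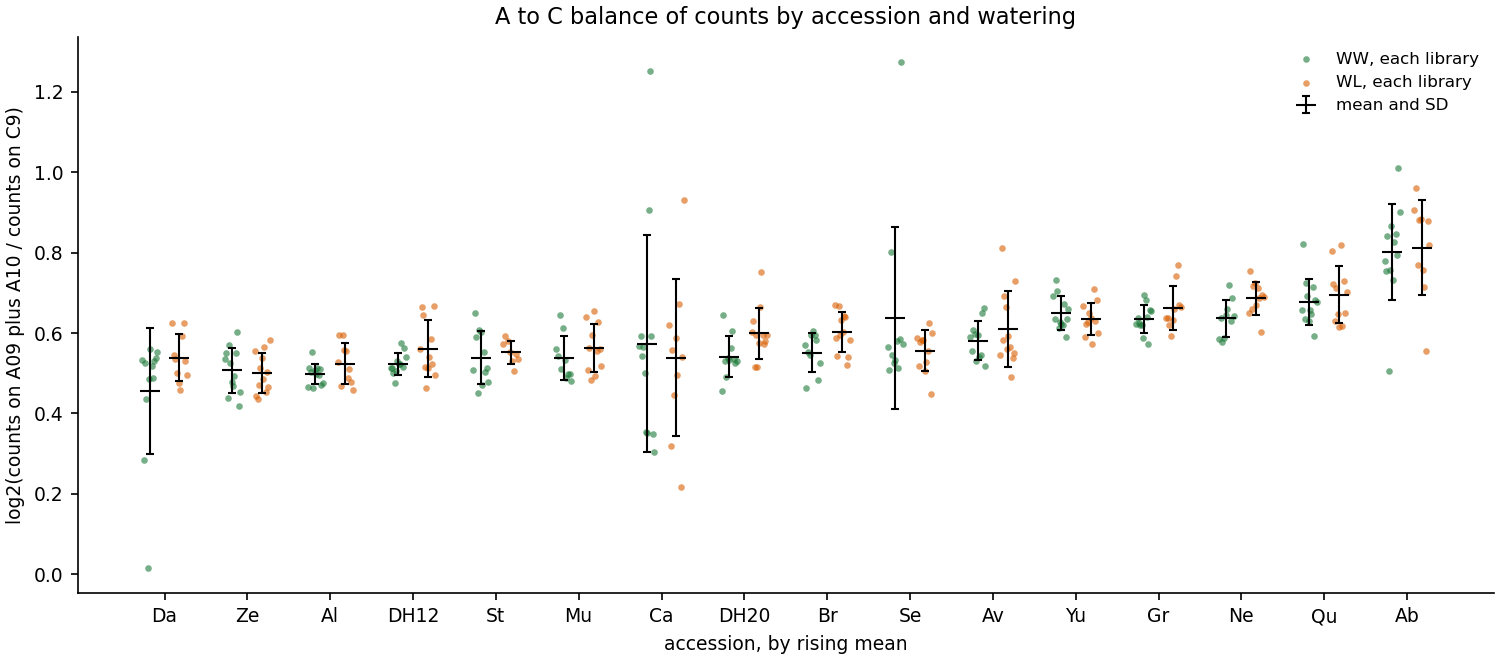
Balance of counts, log2 of A09 plus A10 over C9 (vertical), in each library by accession (horizontal, by rising mean), green for WW and orange for WL, with mean and SD in black. The differences between waterings are small beside the spread of the libraries. Single libraries of Ca and Se lie far above the rest of their accession, and the lowest of Da lies at 0.02, against a median of 0.53.

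The effect of water limitation on single windows was tested within each accession, with WL minus WW averaged over the 4 time points. Of 5184 combinations 94 were called (adjusted p of 0.01 or less, edgeR), 59 higher and 35 lower, 1.81% against a background of 1.71%. Scaled by library totals, which moved the median of all windows by -0.03 on the log2 scale, 37 were higher and 52 lower. Ca had 45 of the 94, DH20 13, DH12 12, Ab 8, St 5, Mu 4, Av and Br 2 each, Ne, Qu and Yu 1 each and Al, Da, Gr, Se and Ze 0 (0 also with DESeq2, and 15 to 46 windows each at an unadjusted p below 0.05). The share of all windows called in each accession is not given here either. Without the 15 libraries with long runs, 48 were called. Averaged over the 16 accessions, 176 of 324 windows were called (97 higher, 79 lower), 54.3% against a background of 52.1%. With library totals 58 were higher and 118 lower, so the split between directions rests on the scaling.

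The 8 windows with the largest common effects differed in how far the effect rested on their most counted gene. C9 window 34 was higher under WL by 0.63 (SE 0.05, adjusted p = 1.7e-22, edgeR), and Bo9g032470 took 71.4% of its counts. Without that gene the window's value was -0.08. C9 window 83 was lower by -0.44 (SE 0.06), with 49.2% of its counts from Bo9g120390, and 0.05 without it. C9 window 38 was at -0.33 with Bo9g037370 and -0.09 without. C9 windows 34 and 83 thus changed sign without the gene, and the other 6 kept their direction with values that were smaller or, on A09 window 66, slightly larger. A09 window 66 had 0.40 with and 0.41 without it, A09 window 19 had 0.34 and 0.32, A09 window 6 had 0.42 and 0.25, A10 window 19 had -0.35 and -0.34, and A10 window 61 had -0.32 and -0.14.

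Of the 147 combinations in blocks 9 were called for WL, 6.12% against a background of 1.71%, and all 9 lay in 4 blocks of Ca, St and DH20. They were 3 in A09 windows 2 to 5 of Ca, 3 in A09 windows 127 to 129 of St, 2 in C9 windows 128 to 131 of DH20 and 1 in C9 windows 128 to 131 of St. Over all 324 windows Ca had 45 calls, DH20 13 and St 5, so the background of 1.71% over all accessions is not the rate of each. The Ca libraries were widely spread over A09 windows 1 to 5. In both blocks of St, the library WL ZT7 replicate 2 stood apart, as given below. No call fell in the other 23 blocks, among them all those of Se, Ab, Gr, Ne, Qu, Yu and Av, whose median WL effects ran from -0.04 to 0.19. In Se, C9 windows 11 to 22 had a median of 1350 CPM under WW (n = 11) and 1318 CPM under WL (n = 11). C9 windows 1 to 9 of Ne had 1533 CPM (n = 10) and 1514 CPM (n = 11).

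The difference between an accession's WL effect and the mean effect of the other 15 was called in 25 of 5184 combinations, 18 higher and 7 lower, 0.482% against a background of 0.267% (adjusted p of 0.01 or less, edgeR, the interaction term), and in 14 without the 15 libraries with long runs. Ca had 13, DH20 5, St 4 and DH12 3. The largest difference in Ca was on A09 window 2, 0.85 (SE 0.17, adjusted p = 0.0013, edgeR), and none of the 13 was called without the 15 libraries with long runs, where it was 0.46. In DH20, C9 windows 125, 126, 128 and 129 were lower under WL by more than elsewhere, with the largest difference -1.01 (SE 0.14, adjusted p = 1.8e-08, edgeR) on window 126, and A10 window 57 was higher by 0.42 (SE 0.09, adjusted p = 0.0072, edgeR). These 5 were called without the 15 libraries. C9 windows 125, 126 and 128 were also called whichever replicate number was left out, and C9 window 129 and A10 window 57 were not. The spread within groups of DH20 given above runs along the same windows, and its part in the result was not tested.

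In St and DH12, single libraries stood apart in the windows with an interaction. In St the differences were 0.48 to 0.55 on A09 windows 127 to 129 and 0.77 (SE 0.15, adjusted p = 0.00045, edgeR) on C9 window 129. The library WL ZT7 replicate 2, the only one of its group, had 649 CPM on A09 windows 127 to 129 and 1569 CPM on C9 windows 128 to 131, and the other WL libraries of St had at most 317 and 1020 CPM. Without replicate 2 the 4 differences were 0.05 to 0.31 (adjusted p from 0.55 to 0.97, edgeR). In DH12, C9 window 124 was higher under WL by 0.48 more than elsewhere (SE 0.09, adjusted p = 9.7e-05, edgeR). There WL ZT13 replicates 3 and 1 had 1365 and 839 CPM and the other 21 libraries 277 to 514 CPM. A10 window 62 was lower by -0.74 (SE 0.13, adjusted p = 3.5e-05, edgeR), or -0.58 without the 2 libraries that went against their labels. The library labelled DH12 WW ZT19 replicate 3 had 591 CPM there and the others 99 to 232 CPM. Without replicate 3 the differences were 0.38 on C9 window 124 and -0.52 on A10 window 62.

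Genes on A09, A10 and C9 were also tested for WL minus WW within each accession. Of 145803 tests of a gene in an accession 672 were called, 312 higher and 360 lower, 0.461% against a background of 0.453% over all genes (adjusted p of 0.01 or less, edgeR). DH12 supplied 495 of them, 5.41% of its 9152 genes on these chromosomes against a background of 5.12% in DH12. Br had 84, Mu 34, Gr 29, Av 9, Yu 7, Ab 6, St 5, Ca 2 and Da 1. In Al, DH20, Ne, Qu, Se and Ze 0 genes were called by edgeR, where 685 to 1672 had an unadjusted p below 0.05 and DESeq2 called 22 to 188. Calls fell on both subgenomes, 186 higher and 227 lower on A09 and A10, 126 higher and 133 lower on C9. DESeq2 called 5076 in all accessions together. Without the 2 libraries that went against their labels edgeR called 763, and without the 15 libraries with long runs 589.

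Among genes tested in every accession, those called in the most accessions had effects of the same sign in 14 to 16 of the 16. On A09 and A10, BraA09g06140R (A09 window 11) rose in Ab, DH12 and Gr, by 2.54 (SE 0.39), 1.75 (SE 0.22) and 2.35 (SE 0.31) on the log2 scale (adjusted p of 0.0096, 0.00021 and 0.0043, edgeR). In DH12 it had 3.19 to 11.4 CPM in 12 WW libraries and 6.14 to 40.3 CPM in 11 WL libraries. BraA10g30160R (A10 window 59) rose in DH12, Gr and Mu, with 4.66 to 57.5 CPM under WW and 13.2 to 545 CPM under WL in DH12. Its mean difference over the 16 accessions was 1.51 (SD 0.58), above 0 in 16 of 16. BraA09g08680R (A09 window 16) rose in Da, Gr and Mu by 0.99 to 1.14.

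Lower under WL on A09 were BraA09g61980R (window 122) in Av, Br and DH12, BraA09g20850R (window 40) in Br, DH12 and Mu, and BraA09g53190R (window 105) in DH12 and Gr. BraA09g61980R had means over accessions of 123 CPM (SD 37.5 over 16) under WW and 36.0 CPM (SD 14.0) under WL, a mean difference of -1.71 on the log2 scale and below 0 in 16 of 16. BraA09g53190R fell in DH12 from a median of 17.9 CPM under WW to 1.17 CPM under WL, with libraries of 4.83 to 30.8 and 0 to 16.4 CPM, which overlapped.

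On C9, Bo9g032670 (window 34) rose in Ca, DH12 and St, Bo9g169630 (window 116) in Br, DH12 and Yu, and Bo9g017730 (window 18) in Br and DH12. Bo9g032670 was low in Ca under WW, 0 to 0.465 CPM in 12 libraries, and had 0.844 to 8.71 CPM in 10 WL libraries, without overlap (4.16 on the log2 scale, SE 0.48, adjusted p = 0.0024, edgeR). In St it had 1.83 to 18.1 CPM under WW and 13.6 to 330 CPM under WL. Bo9g030940 (window 33) fell in Br, DH12 and Yu, with means over accessions of 53.7 CPM (SD 15.8) under WW and 22.4 CPM (SD 5.59) under WL. Bo9g032500 (window 34) fell in Br and DH12, and Bo9g038510 (window 38) in DH12 and Gr. In DH12 Bo9g038510 had 0.927 to 7.54 CPM under WW and 0 to 0.645 CPM under WL, without overlap (-4.42 on the log2 scale, SE 0.40, adjusted p = 3.1e-05, edgeR).

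The study annotated 4 genes of these chromosomes with abiotic stress terms, 15 with autophagy or cell death, 16 with biotic stress and 37 with carbohydrate metabolism. It drew these lists from the same samples, and the copy used here was shortened, so they are not independent evidence of a direction. Of the abiotic stress genes 0 of 64 tests were called in either direction, with a median WL effect of -0.18 against -0.0016 over all genes. An unadjusted p below 0.05 was reached by 5 higher and 15 lower tests, and DESeq2 called 2 higher and 2 lower. Bo9g010710 (C9 window 12) and BraA09g05890R (A09 window 10), annotated with regulation of the response to water deprivation, were below 0 in 15 and 14 of 16 accessions, -0.81 (SD 0.57) and -0.59 (SD 0.51) on average. The other 2 genes of the list went the other way. BraA09g39680R and BraA09g53180R were above 0 in 12 and 10 of 16 accessions, 0.37 (SD 0.41) and 0.06 (SD 0.31) on average.

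Bo9g010710 and BraA09g05890R both stood out in Se. Bo9g010710 had 32.6, 39.9 and 65.6 CPM as lowest, median and highest of the 22 Se libraries, and the medians of the other accessions ran from 3.73 to 8.45 CPM. BraA09g05890R had 48.9, 60.7 and 101 CPM in Se, and medians of 7.68 to 27.0 CPM elsewhere. Single libraries of other accessions reached these ranges, up to 71.4 and 128 CPM. Bo9g010710 lies within C9 windows 11 to 22, where most genes of Se were low. BraA09g39680R (A09 window 78) had accession means of 2.64 to 8.46 CPM and BraA09g53180R (A09 window 105) of 229 to 653 CPM.

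In the autophagy list 2 of 240 tests were lower and 0 higher (median -0.16), in the biotic stress list 2 of 256 lower and 0 higher (median -0.63), and in the carbohydrate list 6 of 592 higher and 2 lower (median 0.08). The background was 0.453% over all genes and accessions and 5.12% in DH12, where every autophagy and biotic stress call and 5 of the 8 carbohydrate calls fell. DESeq2 called 12 of the autophagy tests lower, 33 of the biotic stress tests lower, and 33 of the carbohydrate tests higher and 11 lower. BraA09g62350R, annotated with programmed cell death and the innate immune response and a member of both of the former lists, was lower in DH12 (-2.49, SE 0.55, adjusted p = 0.0068, edgeR), with 2.76 to 385 CPM under WW and 1.5 to 59.9 CPM under WL. Bo9g075920, annotated with systemic acquired resistance, was lower in DH12 too (-2.34, SE 0.41, adjusted p = 0.0017, edgeR). Bo9g055930, annotated with autophagic processes, fell by 0.50 in DH12 (SE 0.10, adjusted p = 0.0032, edgeR). Among carbohydrate genes, BraA09g08110R, BraA09g53530R and BraA10g17320R, annotated with glyceraldehyde-3-phosphate metabolism, rose in DH12 by 0.96, 0.54 and 0.46, and BraA09g42300R fell in DH12 and Gr (-0.72 and -0.55). BraA09g53420R, annotated with glucose metabolism, rose in Br by 1.24 (SE 0.23, adjusted p = 0.0071, edgeR), with 8.99 to 449 CPM under WW and 30.3 to 672 CPM under WL.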

How the data were processed

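Leaf RNA of 16 accessions was sequenced by the study as paired-end libraries. According to the study's methods and the submitters' processing notes, reads were trimmed with Trimmomatic 0.33, aligned with HISAT2 2.1.0 to the joined genomes of B. rapa R500 and B. oleracea TO1000, and counted by strand with featureCounts, a read with several alignments adding a fraction to each. The deposited tables hold these estimated counts per gene, so that near-identical A and C copies can share reads. Both parents are represented by 1 reference line each, and genes that an accession carries but the references lack were not counted. Deposited tables of log2 values were not used. The library Br WW ZT13 replicate 1 was not analysed here.

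Counts were summed in windows and rounded. Windows of all chromosomes were fitted together with edgeR 4.0.16 (TMM factors, filterByExpr, quasi-likelihood test, 1 mean per accession, watering and time point), with Benjamini-Hochberg adjustment over all windows and accessions. Genes were fitted per accession with the same test, and adjusted over the genes tested in that accession. For genes the filter was by group, library sizes came from the genes kept and tagwise (per-gene) dispersions were not estimated. For windows the filter was by accession and library sizes came from all counts. Balances were compared with exact permutation tests. CPM were taken from the unrounded counts. Total counts of 3216762 to 35177558 per library set the precision of low genes. Scripts were tested on simulated data. Named genes were the 2 with the most counts in each of the 12 longest blocks, the 3 called higher and 3 lower under WL in the most accessions for A09 with A10 and for C9, and the 4 with abiotic stress terms, and genes of the other lists were named where called. The regions, lists and tests were chosen with earlier results of these data known. Alternatives were RLE factors, library totals, no filter, other window sizes, other weights of genes, DESeq2 1.42.0, a replicate block and leaving out replicates, and, chosen after seeing the data, leaving out the 2 or the 15 libraries that stood apart. R 4.3.3, Python 3.11.15, numpy 2.4.6, pandas 2.3.3 and scipy 1.17.1 were used.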

Additional observations from a re-analysis of the deposited data

Results flagged for a closer look

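Differences in the WL effect between 1 accession and the mean of the other 15 passed the interaction test of edgeR in 4 accessions. Ca had 13 such windows, with the largest difference, 0.8541 on the log2 scale, on A09 window 2. DH20 had 5, with -1.012 on C9 window 126. St had 4, with 0.7684 on C9 window 129. DH12 had 3, with -0.7436 on A10 window 62. Without the 15 libraries with long runs, 0 of the 13 in Ca were called, and all 5 in DH20, all 3 in DH12 and 3 of the 4 in St were called. With each replicate number left out in turn, C9 windows 125, 126 and 128 of DH20 stayed called. The other windows of DH20 and those of DH12 and St lost their call in some of these settings, which leave fewer libraries per group.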

How the results depend on the processing

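Departures of accessions changed little. Of the 294 called combinations, 272 to 294 were called in the same direction under every other setting with windows of 50 identifiers and the 1.5-fold limit, apart from 235 without the most counted gene of each window. No block changed direction, and most lost calls came with the 2-fold limit, where 120 combinations were called. Windows of 25 and of 100 identifiers, which differ in number, gave 754 and 125 departures, 218 and 55 for WL, 339 and 90 for its mean, and 40 and 12 interactions.

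Water limitation was less stable. Without the most counted gene of each window 51 of the 94 window calls were made in the same direction and 1 in the opposite, and 112 and 5 of the 176 calls of the mean. Leaving out a replicate number gave 23 to 43 windows, 8 to 10 interactions and 56 to 555 genes, with fewer libraries in each. Without the 15 libraries there were 48 windows and 14 interactions. DESeq2 called 5076 genes, and the cause was not tested. Without the 10 most counted genes the balance passed in 8 accessions. Against A01 over C1 and A02 over C2, from which no gene was left out, it was then 0.041 and 0.012. As a mean over genes it was -0.0053, or -0.00218 against A01 over C1, -0.000635 against A03 over C3, -0.028 at ZT1 and -0.00501 at ZT13, and the cause was not tested. Leaving out a replicate number gave 0.015 to 0.030 over accessions, -0.024 to 0.0022 against A02 over C2, 0.038 to 0.059 against A03 over C3, -0.017 to 0.029 at ZT1 and -0.0092 to 0.025 at ZT13.

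Libraries with the same replicate number did not deviate together (median r of -0.04, against 0.01 for other numbers, more alike in 5 of 16 accessions), so the number is no pairing. With it as a replicate block 444 genes, 293 departures, 84 WL windows and 22 interactions were called, and the balance over accessions was 0.03.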
